A study of Mus musculus with 14 samples.

Results

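The genes of DNA replication and mitosis described here are a list of 48 that was drawn up by function, from the minichromosome maintenance helicase (Mcm2 to Mcm7) to the mitotic cyclins and spindle motors. Each was taken from the deposited table by its symbol, and 46 of the 48 were found and tested, out of 37862 entries with a gene name, of which 11977 passed a filter of at least 1 FPKM in at least 2 libraries. FPKM is the number of sequenced fragments scaled by transcript length and library depth, so levels can be compared between genes. For this account 18 of the 46 were treated as S phase genes and 28 as mitotic genes, a division made by function. Cdt1 and Gins2 were not analysed here. Top2a, Stmn1, Mcm7 and E2f1 were read from entries that also name another gene (Gm23451 for Top2a, Gm23634 for Stmn1, Mir25 and Mir93 for Mcm7, and Necab3 for E2f1), so the fragments of the named genes cannot be told apart there.

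The study measured polyadenylated RNA in 14 libraries of macrophages derived in culture from marrow, taken from C57Bl6/J mice that were male and 6 to 12 weeks old, in medium conditioned by L929 cells as a source of the growth factor CSF-1, which all groups received. Cells were given PBS or 100 ng/mL of Poly I:C, a synthetic double-stranded RNA that TLR3 senses, for 24 h, were washed, and were then given PBS or LPS, a bacterial product that TLR4 senses, for 2 h or 6 h. The labels give no LPS dose for this step. The 8 groups held 2 libraries each, except that PBS then PBS had 1 library at each time. Nothing in the labels says that the replicates came from separate mice or cultures, so p-values measure only the spread between these libraries, which may be technical, and comparisons with PBS then PBS assume that the lone control varies like the other groups.

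Dividing cells copy their DNA in S phase and part the copies in mitosis. Transcription of the S phase genes is driven by E2F factors once the retinoblastoma protein family releases them, whereas most mitotic genes peak later, in G2 and M phase, under the MuvB complex with B-Myb (Mybl2) and FoxM1, and are held down in resting cells by the related DREAM complex. Macrophages from bone marrow divide in culture when CSF-1 is present, and activation through Toll-like receptors is known to halt that division. In bulk RNA, fewer dividing cells and less of a transcript in each cell cannot be told apart.

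All 8 macrophage markers were present, with a summed level of 5361 to 8660 FPKM in libraries that had received Poly I:C and 13857 to 20640 FPKM in the others. Lyz2 alone made up that gap, at 2408 to 4397 FPKM against 10930 to 16240 FPKM, and the other 7 summed to 2282 to 4263 FPKM against 2242 to 4399 FPKM. After Poly I:C then PBS, 5 of the 8 were called lower and 1, Fcgr1, higher by limma at each time. Markers of neutrophils (summed level at most 8.59 FPKM), myeloid progenitors (at most 0.777 FPKM), B cells (at most 2.20 FPKM), T or NK cells (at most 7.92 FPKM) and red cell precursors (at most 0.492 FPKM) were low in all 14 libraries; all 8 progenitor markers, among them Kit, Mpo and Elane, stayed under 1 FPKM throughout. The 8 stromal markers summed to 15.9 to 22.0 FPKM in the PBS libraries at 2 h and to 44.7 to 117.4 FPKM after Poly I:C at that time, and at 6 h to 21.2 to 63.2 FPKM after PBS and 26.4 to 57.4 FPKM after Poly I:C. The part of these cells in the results below was not tested. The value of 1 sequenced fragment, read from the spacing of low values, differed by at most 3.075-fold between libraries, and absolute depth is unknown. Replicates correlated with r between 0.974 and 0.988 across genes, which are not independent replicates.

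Promoter windows of 300 bases, from 250 bases before to 50 after a transcription start, were found in RefSeq (build GRCm38.p6) for 38 of the 46 genes, in 41 windows. They were searched on both strands for 3 motifs of cell cycle promoters: the cell cycle homology element that MuvB complexes bind (TTTGAA or TTCGAA), the CCAAT box of the factor NF-Y (CCAAT), and the E2F site (TTTCCCGC, TTTCGCGC, TTTGCCGC or TTTGGCGC). Matches of different motifs overlapped 2 times in these windows. The cell cycle homology element was in 19 of 24 windows of mitotic genes (79.2%) and in 3 of 17 windows of S phase genes (17.6%), beside 19.2% of all 32851 windows. The CCAAT box was in 21 of 24 mitotic windows (87.5%) and 12 of 17 S phase windows (70.6%), beside 37.4% of all windows. The E2F site was in 7 of 17 S phase windows (41.2%) and 1 of 24 mitotic windows (4.17%), beside 2.26% of all windows. A match is a description of the letters and not a measured binding site.

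Printed here are the 150 bases before the start for 8 genes whose transcripts carry the results below, 5′ to 3′ on the gene's own strand, with matches of the 3 motifs in capitals on whichever strand they were found (ATTGG is CCAAT on the other strand). Cdc20, Cdk1 and Ccnb2 are mitotic genes that were low after Poly I:C and stayed low after LPS. Mcm5 and Mcm6 are S phase genes with E2F sites.
Cdc20 (chr4:118437344-118437493, minus strand): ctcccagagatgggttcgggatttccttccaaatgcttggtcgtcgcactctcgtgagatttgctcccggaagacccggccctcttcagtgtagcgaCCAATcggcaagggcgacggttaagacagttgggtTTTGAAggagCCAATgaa
Cdk1 (chr10:69352913-69353062, minus strand): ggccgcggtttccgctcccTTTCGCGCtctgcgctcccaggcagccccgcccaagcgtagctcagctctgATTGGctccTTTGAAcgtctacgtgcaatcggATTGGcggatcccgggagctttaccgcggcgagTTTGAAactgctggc
Ccnb2 (chr9:70421555-70421704, minus strand): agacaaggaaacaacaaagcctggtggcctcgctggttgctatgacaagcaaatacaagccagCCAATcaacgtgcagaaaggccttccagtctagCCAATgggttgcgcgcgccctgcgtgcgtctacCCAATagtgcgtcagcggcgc
Mcm5 (chr8:75109359-75109508, plus strand): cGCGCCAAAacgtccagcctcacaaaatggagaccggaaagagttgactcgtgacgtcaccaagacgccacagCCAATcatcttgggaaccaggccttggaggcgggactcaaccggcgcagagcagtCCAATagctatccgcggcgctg
Mcm6 (chr1:128359706-128359855, minus strand): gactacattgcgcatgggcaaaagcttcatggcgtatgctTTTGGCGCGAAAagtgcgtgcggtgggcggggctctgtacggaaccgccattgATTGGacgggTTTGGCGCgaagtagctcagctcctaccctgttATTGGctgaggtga
The next 3 belong to genes whose levels went another way than the rest. Mki67 holds 2 cell cycle homology elements in this stretch, and the windows of Mad2l1 and Ccne1 are among those of 7 genes with none of the 3 motifs (the others are Nusap1, E2f1, Tyms, Tk1 and Birc5).
Mki67 (chr7:135716380-135716529, minus strand): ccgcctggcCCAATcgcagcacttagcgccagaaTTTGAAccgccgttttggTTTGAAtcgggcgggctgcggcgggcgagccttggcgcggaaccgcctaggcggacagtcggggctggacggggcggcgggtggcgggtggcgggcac
Mad2l1 (chr6:66535071-66535220, plus strand): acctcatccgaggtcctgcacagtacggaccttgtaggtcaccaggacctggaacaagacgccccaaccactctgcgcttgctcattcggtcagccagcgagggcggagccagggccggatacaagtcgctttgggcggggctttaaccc
Ccne1 (chr7:38107491-38107640, minus strand): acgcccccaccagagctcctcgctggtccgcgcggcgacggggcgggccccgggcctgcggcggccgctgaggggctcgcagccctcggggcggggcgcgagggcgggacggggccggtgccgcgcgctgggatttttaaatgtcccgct
Ccnb2 has its 2 cell cycle homology elements outside the printed stretch, at positions -167 and 4 relative to the start. The deposited Ccne1 entry reaches further upstream than the start used here.

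**Figure D1:**
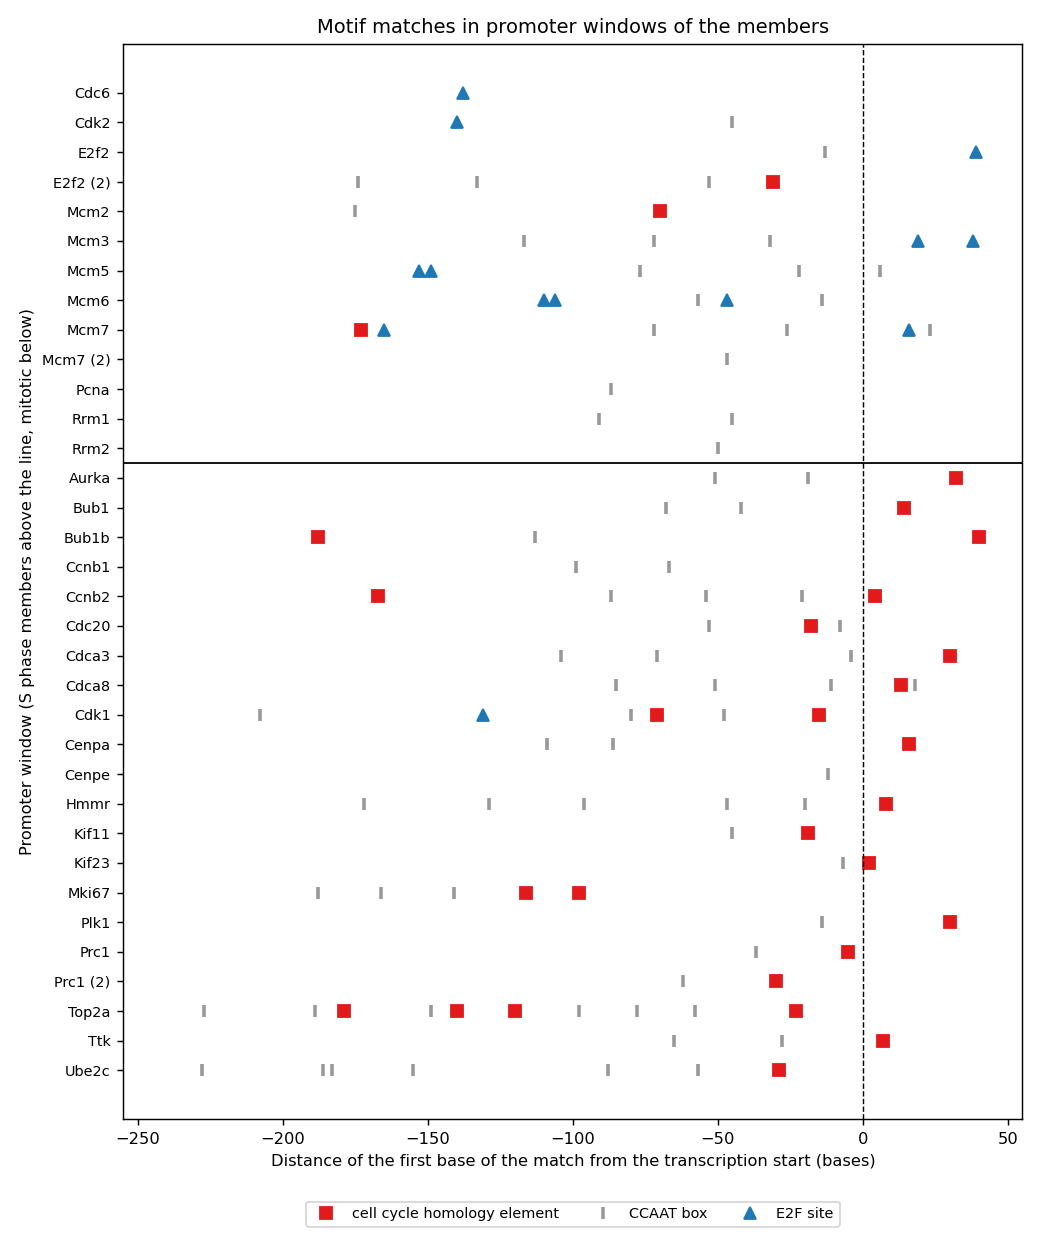
Each row is a promoter window of a member with at least 1 match, S phase genes above the line and mitotic genes below, and the horizontal axis is the distance of the match from the transcription start in bases. Squares (the cell cycle homology element) lie mostly in mitotic windows, 19 of 24, triangles (the E2F site) in S phase windows, 7 of 17, and bars (the CCAAT box) in both.

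In macrophages that had received only PBS, every one of the 46 genes was at or above 1 FPKM at both times. The highest at 2 h were Pcna, the sliding clamp of the DNA polymerases (chromosome 2, 132249162 to 132253314, GRCm38), at 165 FPKM at 2 h and 191 FPKM at 6 h, and Cdk1, the kinase that starts mitosis (chromosome 10, 69335261 to 69352955), at 116 and 83.0 FPKM. Stmn1, which destabilises microtubules, stood at 96.0 and 79.0 FPKM, and Cenpa, the histone variant of centromeres, at 87.7 and 43.1 FPKM. The lowest was the checkpoint kinase gene Ttk, at 2.97 FPKM at 2 h and 3.52 FPKM at 6 h. The median level was 20.8 FPKM over the S phase genes and 19.2 FPKM over the mitotic genes at 2 h.

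The 2 control libraries were not alike in the S phase genes. Mcm2 stood at 18.7 FPKM in the 2 h library and 39.5 FPKM in the 6 h library, and Cdc6, which loads the helicase onto origins, at 3.66 and 7.33 FPKM. Of 18 S phase genes 13 were higher in the 6 h library, with a median ratio of 1.32, and of 28 mitotic genes 8 were, with a median ratio of 0.914. With 1 library at each time this difference has no replicate check, and it enters every comparison with PBS then PBS given below.

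Poly I:C followed by PBS left nearly all of these genes at low levels. At 2 h after the change of medium, 44 of 46 were lower than after PBS alone (22.4% of all genes tested were called lower) and 2 were higher (24.9% of all genes), by limma at an adjusted p under 0.05. Among mitotic genes 27 of 28 were lower and 1 higher, with a median difference of -3.34 on the log2(FPKM + 1) scale. Among S phase genes 17 of 18 were lower and 1 higher, with a median of -1.86, against a median of 0.05 over all genes tested. At 6 h 45 of 46 were lower (16.1% of all genes) and 0 higher (18.4%), with medians of -3.07 for mitotic and -2.73 for S phase genes. The same 44 genes were called lower at both times, as were 12.9% of all genes tested.

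The mitotic cyclins and their kinase were all lower. Ccnb2, a partner cyclin of Cdk1 (chromosome 9, 70407689 to 70421554), stood at 23.5 FPKM after PBS at 2 h and at 0.0941 and 0.445 FPKM after Poly I:C, and at 25.7 against 0.113 and 0.0933 FPKM at 6 h. Both Poly I:C libraries were under 1 FPKM at each time, far below the control (log2 difference -4.29 ± 0.22 at 2 h, limma adjusted p = 2.14e-07, and -4.60 ± 0.22 at 6 h, limma adjusted p = 2.44e-07). Ccnb1, the main mitotic cyclin, stood at 19.1 FPKM after PBS and at 0.698 and 0.641 FPKM after Poly I:C at 2 h (-3.59 ± 0.23). Ccna2, the cyclin of S and G2 phase, went from 27.4 to 0.775 and 1.12 FPKM (-3.87 ± 0.18). Cdk1 kept some transcript, at 5.96 and 8.95 FPKM at 2 h and 7.57 and 3.73 FPKM at 6 h, still below the controls in both (-3.82 ± 0.30 and -3.72 ± 0.30). Of the genes that end mitosis by protein breakdown, Cdc20, an activator of the anaphase-promoting complex (chromosome 4, 118428093 to 118437352), stood at 15.2 against 0.860 and 0.377 FPKM and Ube2c, the ubiquitin-conjugating enzyme of that complex, at 38.9 against 0.559 and 0.914 FPKM at 2 h, differences of -3.34 and -4.53. Cdca3, which helps degrade the mitosis inhibitor Wee1, went from 46.1 to 0.550 and 0.806 FPKM (-4.81 ± 0.24).

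Kinases and checkpoint genes followed the same direction. Plk1, a kinase of mitotic entry and spindle assembly, stood at 14.7 FPKM after PBS and 0.319 and 0.451 FPKM after Poly I:C at 2 h (-3.50 ± 0.24). Aurkb, the kinase of the chromosomal passenger complex, stood at 18.2 against 0.340 and 0.646 FPKM (-3.69 ± 0.19). Its partners Birc5 and Cdca8 changed by -4.41 and -3.10, and Aurka, the kinase of centrosomes, by -2.73. The spindle checkpoint genes Bub1, Bub1b and Ttk changed by -2.70, -2.02 and -1.82, and Mad2l1, which holds back Cdc20 until chromosomes are attached, by -2.12. All 9 of these genes passed the test at both times, and all were lower.

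Genes of the spindle, the centromere and mitotic chromosomes were lower too, with 1 exception. Top2a, the topoisomerase that untangles sister chromosomes, stood at 43.6 FPKM after PBS at 2 h and 1.90 and 1.57 FPKM after Poly I:C (-4.03 ± 0.24). Stmn1 stood at 96.0 against 1.58 and 2.12 FPKM. On the log2(FPKM + 1) scale it had the largest decrease of the set (-5.10 ± 0.26). That scale understates the change of genes that fell under 1 FPKM, such as Ccnb2 (23.5 against 0.0941 and 0.445 FPKM). Cenpa and Cenpe, a kinesin of the kinetochore, changed by -4.40 and -1.87, the motors Kif11, Kif20a and Kif23 by -2.84, -2.98 and -3.33, and the microtubule proteins Prc1, Nusap1 and Hmmr by -3.58, -3.34 and -3.01. Mki67, the source of the Ki-67 antigen used to mark dividing cells (chromosome 7, 135689593 to 135716379), went from 19.3 to 1.60 and 0.992 FPKM at 2 h and from 17.2 to 0.539 and 0.603 FPKM at 6 h (-3.16 ± 0.24 and -3.53 ± 0.24). Tpx2, a spindle assembly factor that activates Aurka (chromosome 2, 152847964 to 152895324), went the other way at 2 h, from 20.6 FPKM after PBS to 69.8 and 72.4 FPKM after Poly I:C (1.74 ± 0.15, limma adjusted p = 1.00e-05), with both Poly I:C libraries above the control. At 6 h Tpx2 stood at 17.4 against 22.9 and 18.9 FPKM and did not pass (0.24 ± 0.15, limma adjusted p = 0.256).

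**Figure D2:**
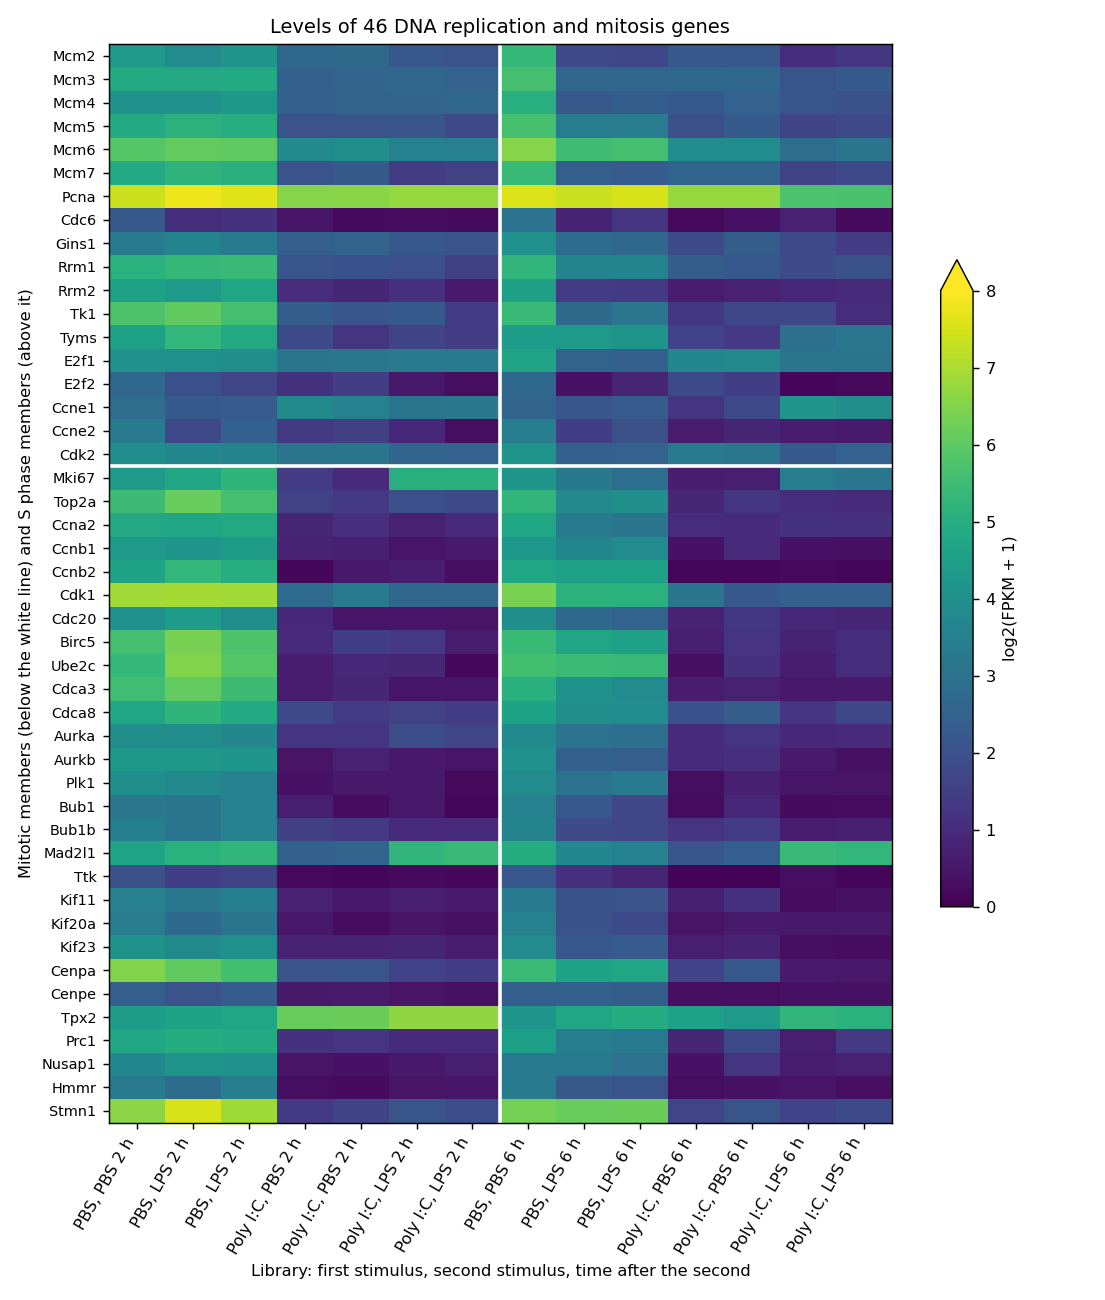
Levels of the 46 members as log2(FPKM + 1), from dark (0) to bright (8 and above), in rows with S phase genes above the horizontal white line and mitotic genes below it, and 1 column per library, 2 h left and 6 h right of the vertical line. Libraries with Poly I:C are dark in most rows. Pcna and Tpx2 stay bright in them, and Mki67 and Mad2l1 are bright in those that then received LPS.

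Of the S phase genes that were lower at 2 h, the helicase subunit Mcm5 (chromosome 8, 75109528 to 75128439) stood at 28.9 FPKM after PBS and 3.15 and 3.12 FPKM after Poly I:C at 2 h (-2.86 ± 0.19), and the 6 subunits changed by -1.57 (Mcm4) to -2.86 (Mcm5). Of the S phase list, 4 genes of enzymes that supply deoxynucleotides had the largest decreases on the log2(FPKM + 1) scale. Rrm2, the regulated subunit of ribonucleotide reductase, went from 22.8 to 1.01 and 0.803 FPKM (-3.64 ± 0.25). Tk1, thymidine kinase, went from 53.0 to 4.13 and 3.30 FPKM (-3.52 ± 0.39), and Rrm1 and Tyms, thymidylate synthase, changed by -3.07 and -3.06. Pcna was lower but remained abundant, at 165 against 93.1 and 94.6 FPKM (-0.80 ± 0.13), and Cdk2, E2f1 and Gins1, a subunit of the replicative helicase complex, changed by -0.81, -0.91 and -0.85. Without Poly I:C-then-PBS replicate 1 the call of Gins1 was lost. Ccne2 and E2f2 changed by -1.85 and -1.39. Cdc6 went from 3.66 to 0.367 and 0.186 FPKM, a change of a low gene that the log2(FPKM + 1) scale understates.

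Ccne1, cyclin E1, which drives entry into S phase with Cdk2 (chromosome 7, 38097962 to 38113028), was higher at 2 h and lower at 6 h. It stood at 6.31 FPKM after PBS and 12.9 and 10.6 FPKM after Poly I:C at 2 h (0.79 ± 0.24, limma adjusted p = 0.0192), and at 5.15 against 1.32 and 2.43 FPKM at 6 h (-1.13 ± 0.24, limma adjusted p = 0.00462). Between 2 h and 6 h after the change of medium it fell by 2.17 ± 0.22 within the Poly I:C-then-PBS group, with both 6 h libraries below both 2 h libraries. The 2 h increase was lost without Poly I:C-then-PBS replicate 1, which left Tpx2 as the only gene called higher (1 in place of 2).

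Over those 4 h the Poly I:C-then-PBS group moved little otherwise: 3 members were lower at 6 h (18% of all genes) and 3 higher (12.3%). Tpx2 had the other large decrease (-1.72 ± 0.13), and Mcm2 was the third (-0.50 ± 0.15). Mcm7 (0.44), E2f1 (0.59) and Aurkb (0.48) were the increases. These small changes were unsteady, with counts of 2 to 5 lower and 1 to 3 higher as single libraries were left out: 5 were lower without PBS-then-LPS replicate 1 or 2 of 2 h, and 1 was higher without Poly I:C-then-PBS replicate 1 of 2 h or replicate 2 of 6 h. With the replicate number as a block 1 was higher.

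LPS given to cells without Poly I:C lowered most of these genes at 6 h, but at 2 h only a share near that of all genes. At 2 h 3 of 46 were lower (6.39% of all genes) and 0 higher (9.47%), and the median was 0.09 over mitotic and 0.03 over S phase genes. Those lower were Ccne2 (-1.16 ± 0.34), Cdc6 (-1.14 ± 0.25) and E2f2 (-0.90 ± 0.25), all S phase genes. Cdc6 stood at 3.66 FPKM after PBS and 1.06 and 1.18 FPKM after LPS. None of these calls held at a pseudocount of 0.1 or without the filter, and without Poly I:C-then-LPS replicate 1 or 2 of 6 h only 1 was left, while 1 or 2 mitotic or S phase genes were called higher without PBS-then-LPS replicate 1 or 2. Cdk1 stood at 116 FPKM after PBS and 121 and 117 FPKM after LPS at 2 h (0.03 ± 0.30), and Mcm3 at 27.8 FPKM after PBS and 27.5 and 28.5 FPKM after LPS (0.01 ± 0.15).

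By 6 h after LPS 34 of 46 genes were lower than in the PBS library of that time (20.6% of all genes) and 1 was higher (22.9%). The S phase genes had the larger median, -2.07 with 15 of 18 lower, against -1.12 with 19 of 28 mitotic genes lower and 1 higher. The difference between the lists was not tested. The median over all genes was 0.02. The change from 2 h to 6 h within cells given PBS then LPS, which does not use the single controls, gave 40 of 46 lower (26% of all genes) and 0 higher (23.4%), with medians of -1.34 and -1.22.

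Among S phase genes, Mcm2 stood at 13.6 and 17.5 FPKM 2 h after LPS and at 2.42 and 2.34 FPKM at 6 h, while the PBS libraries held 18.7 and 39.5 FPKM. Both 6 h LPS libraries lay below all other libraries without Poly I:C (difference from the 6 h control -3.58 ± 0.18, limma adjusted p = 2.14e-07, and from 2 h of LPS -2.28 ± 0.15, limma adjusted p = 1.20e-06). Rrm2 went from 18.8 and 25.4 FPKM at 2 h to 1.67 and 1.58 FPKM at 6 h (-3.12 ± 0.20), and Tk1 from 65.7 and 47.8 to 5.85 and 7.78 FPKM (-2.88 ± 0.32). Mcm7 and Mcm3 changed by -2.77 and -2.18 over those hours, E2f1 by -1.48 and Cdk2 by -1.16. Mcm6 moved less, from 66.7 and 64.3 to 44.5 and 48.5 FPKM (-0.49 ± 0.11). Pcna, Tyms and Ccne1 did not pass against the 6 h control, at -0.16 ± 0.13, -0.21 ± 0.27 and -0.41 ± 0.24, and Pcna stood at 160.4 and 183 FPKM 6 h after LPS.

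Among mitotic genes the decrease at 6 h was uneven. Ccna2 went from 25.3 and 28.2 FPKM at 2 h to 8.63 and 7.40 FPKM at 6 h after LPS (-1.62 ± 0.15, limma adjusted p = 1.25e-05), and Aurkb from 18.3 and 17.5 to 4.54 and 4.38 FPKM (-1.79 ± 0.15). Bub1b, Kif23 and Kif20a changed by -1.81, -1.64 and -1.61 against the 6 h control. In contrast Ccnb2 stood at 22.7 and 23.0 FPKM beside 25.7 FPKM in the control (-0.16 ± 0.22, limma adjusted p = 0.594), and Ube2c at 42.4 and 41.9 beside 46.7 FPKM (-0.14 ± 0.38). Cenpe (-0.02 ± 0.18), Nusap1 (-0.18 ± 0.29) and Stmn1 (-0.14 ± 0.26) did not pass either, nor did Ccnb1, Birc5 and Cdca8 (-0.51, -0.76 and -0.69). A missed threshold against 1 control library does not show that these genes were unchanged. Tpx2 was the 1 gene called higher, at 25.3 and 29.9 against 17.4 FPKM (0.63 ± 0.15).

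Tested directly, the effect of LPS at 6 h differed from that at 2 h in 26 of 46 genes, all in the direction of a lower level at 6 h (11.7% of all genes), and in 0 in the other direction (13.9%). Of these 13 were S phase genes and 13 mitotic ones. Mcm2 had the largest difference (-3.32 ± 0.26), followed by Mcm7 (-3.29 ± 0.24) and Rrm2 (-3.10 ± 0.35). A rise between the 2 control libraries is a part of the values of Mcm2 and Mcm7. Of the 18 S phase genes, 13 were higher in the 6 h control library.

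**Figure D3:**
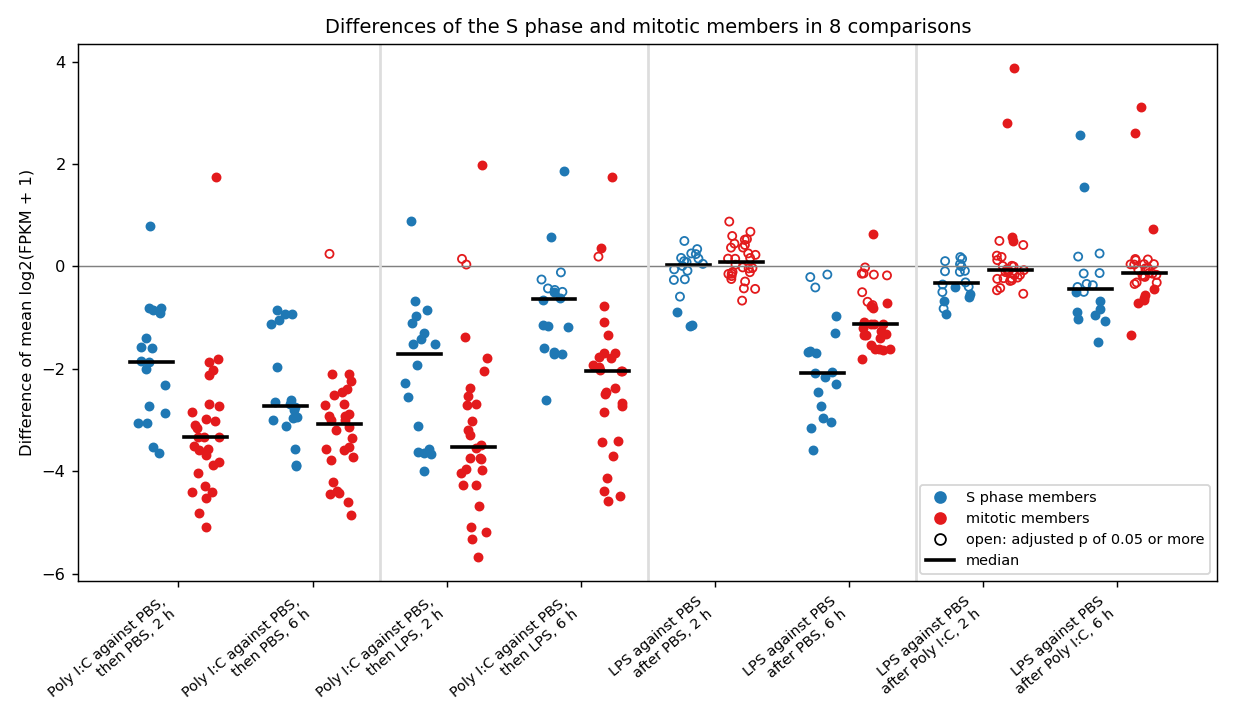
Differences of mean log2(FPKM + 1) for the 18 S phase members (blue) and 28 mitotic members (red) in 8 comparisons, 1 point per gene, filled where the adjusted p was under 0.05, with the median as a black bar. The first 4 columns, Poly I:C against PBS, lie mostly below 0. LPS after PBS lies around 0 at 2 h and lower at 6 h, with medians of -2.07 and -1.12. LPS after Poly I:C has 5 of 46 genes lower (8.72% of all genes) and 4 higher (14%) at 2 h. At 6 h it has 14 lower (22.2%) and 5 higher (21.7%).

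When LPS followed both first stimuli, Poly I:C still separated the groups. At 2 h 42 of 46 genes were lower after Poly I:C than after PBS (28.5% of all genes) and 2 higher (32.6%), with medians of -3.52 for mitotic and -1.72 for S phase genes. At 6 h 36 were lower (25.9%) and 4 higher (23.7%), with medians of -2.04 and -0.64. Cdk1 stood 6 h after LPS at 34.2 and 33.6 FPKM without Poly I:C and 4.51 and 4.53 FPKM with it (-2.66 ± 0.24), and Ube2c at 42.4 and 41.9 against 0.550 and 1.09 FPKM (-4.58 ± 0.31). Ccnb2 and Cenpa changed by -4.39 and -4.13. At 6 h 5 S phase genes (Mcm4, Cdc6, Rrm2, E2f2 and Cdk2) and Mki67 did not pass. Rrm2 stood at 1.67 and 1.58 FPKM without Poly I:C and 0.846 and 0.971 FPKM with it (-0.46 ± 0.20, limma adjusted p = 0.0829), and Mcm4 at 3.75 and 4.13 against 3.29 and 2.98 FPKM (-0.26 ± 0.14, limma adjusted p = 0.162). In all, 36 genes were called lower in each of the 4 comparisons of Poly I:C with PBS, as were 7.78% of all genes tested.

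The 4 genes higher with Poly I:C at 6 h of LPS were Ccne1, Mad2l1, E2f1 and Tpx2. Ccne1 stood at 3.28 and 3.99 FPKM without Poly I:C and 16.9 and 14.6 FPKM with it (1.86 ± 0.19, limma adjusted p = 3.19e-05), without overlap. E2f1, the E2F factor that activates S phase genes, stood at 4.80 and 4.50 against 7.39 and 7.37 FPKM (0.57 ± 0.11). The value of Tpx2, 0.35 ± 0.13, lost its call in several other fits, including the one with the replicate number as a block (limma adjusted p above 0.05). Mad2l1 is described in the next paragraph.

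Adding LPS to cells already given Poly I:C raised Mki67 and Mad2l1 strongly at 2 h. Mki67 stood at 1.60 and 0.992 FPKM after Poly I:C then PBS and at 31.5 and 32.9 FPKM after Poly I:C then LPS at 2 h (3.87 ± 0.19, limma adjusted p = 1.48e-06). Cells given PBS then LPS held 26.9 and 36.6 FPKM, and the difference between these groups did not pass the test (0.03 ± 0.19, limma adjusted p = 0.888). At 6 h it stood at 0.539 and 0.603 FPKM without and 9.31 and 7.79 FPKM with LPS (2.60 ± 0.19), again without overlap. Mad2l1 (chromosome 6, 66535390 to 66544427) stood at 4.64 and 4.94 FPKM without LPS and 37.7 and 41.0 FPKM with it at 2 h (2.80 ± 0.14, limma adjusted p = 1.47e-06), and at 3.31 and 4.26 FPKM without and 42.3 and 37.9 FPKM with LPS at 6 h (3.11 ± 0.14). Its level 6 h after LPS exceeded that in cells without Poly I:C, which held 12.3 and 10.4 FPKM (1.74 ± 0.14, limma adjusted p = 6.01e-06).

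Of the 28 mitotic genes, 4 were called higher in that comparison at 2 h, beside 14% of all genes tested, and 24 were not. In the same Poly I:C-then-LPS libraries at 2 h Top2a stood at 2.86 and 2.45 FPKM, beside 1.90 and 1.57 FPKM without LPS. Ccnb1 stood at 0.376 and 0.495 FPKM beside 0.698 and 0.641 FPKM, and Plk1 at 0.460 and 0.162 FPKM beside 0.319 and 0.451 FPKM. None of these 3 passed the test of LPS after Poly I:C (differences of 0.42, -0.22 and -0.09). The spindle checkpoint partners of Mad2l1 did not pass either, with differences of -0.17 ± 0.28 for Bub1, -0.47 ± 0.17 for Bub1b and 0.01 ± 0.15 for Ttk.

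In all, 4 genes were higher at 2 h of LPS after Poly I:C (14% of all genes) and 5 lower (8.72%). Besides Mki67 and Mad2l1 those higher were Aurka (0.58 ± 0.15) and Tpx2 (0.50 ± 0.13), and those lower, all S phase genes, were E2f2, Mcm7, Mcm2, Cdk2 and Mcm6 (-0.93, -0.67, -0.60, -0.54 and -0.40). The count of lower genes ranged from 0 to 7 as single libraries were left out (2, 0, 2 and 1 without replicate 1 or 2 of Poly I:C then PBS and replicate 1 or 2 of Poly I:C then LPS), and that of higher genes fell to 2, Mki67 and Mad2l1 among them, without either Poly I:C-then-PBS library or the first Poly I:C-then-LPS library. At 6 h 5 were higher (21.7% of all genes) and 14 lower (22.2%), the latter falling to 9 without the first Poly I:C-then-LPS library of 6 h (replicate 1). Those higher were Mad2l1, Mki67, Ccne1 at 16.9 and 14.6 against 1.32 and 2.43 FPKM (2.57 ± 0.19), Tyms at 6.54 and 7.78 against 2.08 and 1.53 FPKM (1.54 ± 0.22) and Tpx2 (0.74 ± 0.13). On the log2(FPKM + 1) scale those lower by more than 1 were E2f2 (-1.47), Cenpa (-1.33), Mcm2 (-1.07) and Pcna, at 51.8 and 51.2 against 105 and 107 FPKM (-1.03 ± 0.10).

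Between 2 h and 6 h of LPS after Poly I:C, 11 genes fell (25.3% of all genes) and 2 rose (14.7%). Mki67 went from 31.5 and 32.9 to 9.31 and 7.79 FPKM (-1.80 ± 0.19) and Tpx2 from 100.1 and 101 to 37.4 and 33.5 FPKM (-1.48 ± 0.13). Mad2l1 did not pass the test over those hours (0.03 ± 0.14, limma adjusted p = 0.901), at 42.3 and 37.9 FPKM at 6 h. The 2 that rose were Tyms (1.52 ± 0.22) and Ccne1 (0.90 ± 0.19). The median over all genes was -0.10.

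**Figure D4:**
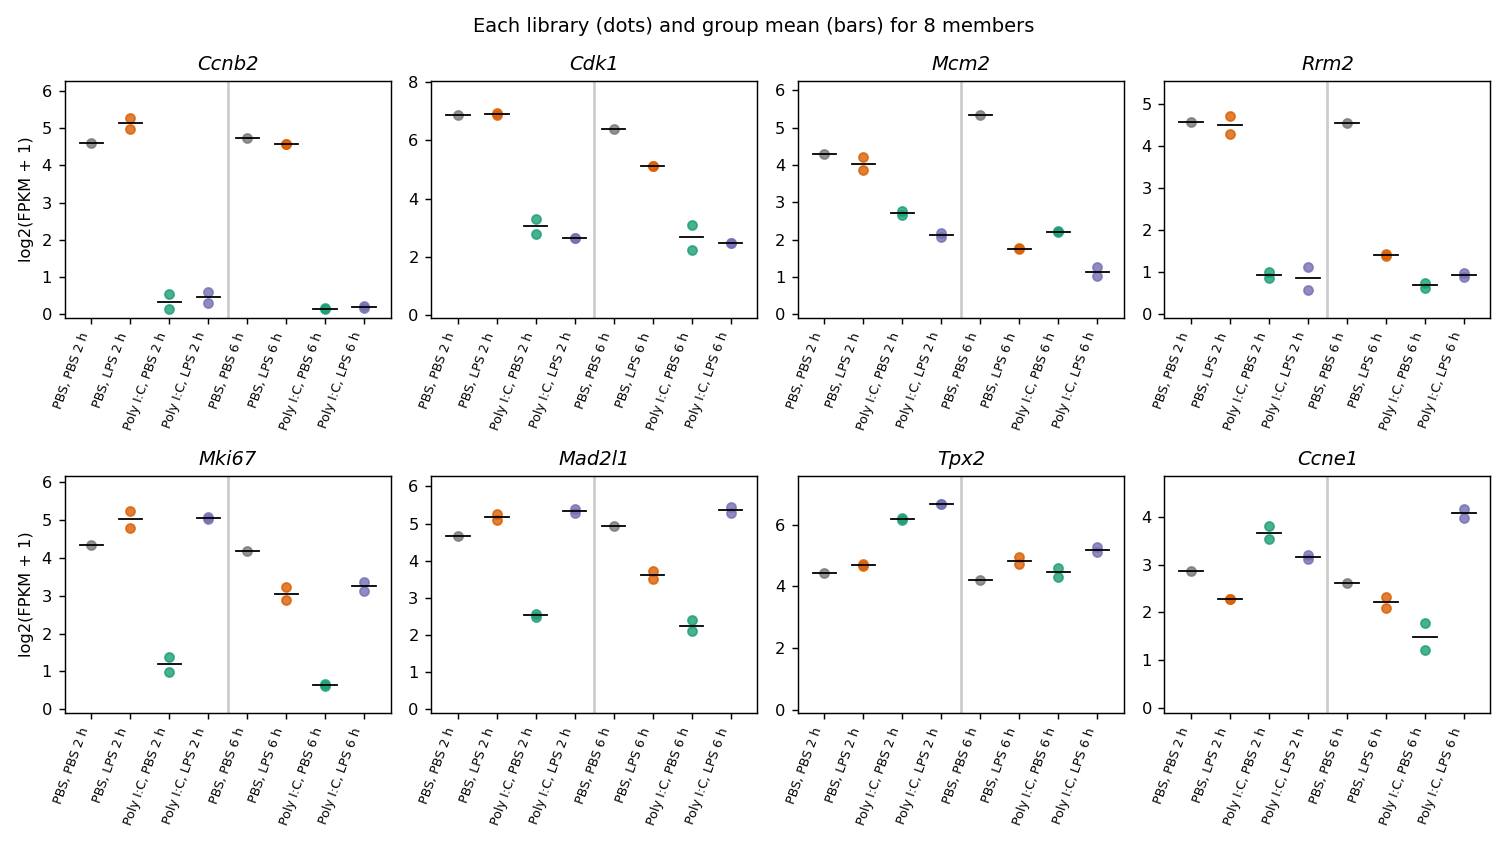
Levels of 8 members as log2(FPKM + 1) by group, first and second stimulus and time named on the horizontal axis, with 1 dot per library and a bar at the group mean (1 library where the group is PBS, PBS). Ccnb2, Cdk1 and Rrm2 are low in all Poly I:C groups; Mki67 and Mad2l1 are high again after Poly I:C then LPS; Tpx2 is highest after Poly I:C at 2 h; and Ccne1 is highest after Poly I:C then LPS at 6 h.

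The effect of LPS was compared between cells with and without Poly I:C by an interaction term. At 2 h 2 of 46 genes had a more positive effect of LPS after Poly I:C (2.52% of all genes), Mki67 (3.19 ± 0.31, limma adjusted p = 3.52e-04) and Mad2l1 (2.27 ± 0.22, limma adjusted p = 3.64e-04), and 1, Mcm7, a more negative one (1.77%, -0.92 ± 0.22), which lost its call whenever a library other than PBS-then-LPS replicate 2 of 2 h was left out. At 6 h 26 had a more positive effect (12.7%) and 1, Pcna, a more negative one (16.7%, -0.87 ± 0.16). Of the 26, 14 were S phase genes, such as Rrm2 (3.42 ± 0.32) and Mcm2 (2.51 ± 0.24). After Poly I:C alone their levels were 0.539 and 0.669 FPKM for Rrm2 and 3.73 and 3.57 FPKM for Mcm2. With LPS after Poly I:C they were 0.846 and 0.971 FPKM for Rrm2 and 1.05 and 1.38 FPKM for Mcm2. A more positive effect is thus not always a rise, and only 5 of 46 genes were called higher with LPS after Poly I:C at 6 h (21.7% of all genes). The largest terms were those of Mad2l1 (4.43 ± 0.22) and Mki67 (3.72 ± 0.31), for which LPS lowered the level after PBS (-1.32 and -1.12) and raised it after Poly I:C.

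Other genes of replication and mitosis, from lists drawn up by function, were also tested. Of 49 other replication genes, 29 were lower and 4 higher after Poly I:C then PBS at 2 h (22.4% and 24.9% of all genes), with a median of -0.95, and 38 lower and 1 higher after LPS alone at 6 h (20.6% and 22.9% of all genes), with a median of -1.46. Of 59 other mitosis genes, 54 were lower and 2 higher after Poly I:C at 2 h (-2.20), and 46 lower and 1 higher after LPS alone at 6 h (-1.08), beside the same shares of all genes. Uhrf1, which passes DNA methylation marks to the new strand, stood at 31.2 FPKM after PBS and 0.562 and 0.750 FPKM after Poly I:C at 6 h (-4.28 ± 0.27). Cks1b, a partner subunit of cyclin-dependent kinases, stood at 33.1 against 0.740 and 1.25 FPKM at 2 h (-4.11 ± 0.34). Pttg1, securin, the guard of the enzyme that parts sister chromosomes, was an exception like Tpx2: it stood at 18.6 FPKM after PBS and 146 and 176 FPKM after LPS alone at 6 h (3.04 ± 0.24), and at 19.9 against 129 and 126 FPKM with Poly I:C at 2 h (2.62 ± 0.24). Of 20 chromatin and tubulin genes that are abundant in dividing cells, 15 were lower and 0 higher after Poly I:C at 2 h (22.4% and 24.9% of all genes), among them Tubb5, a beta tubulin, at 327 against 83.9 and 86.0 FPKM (-1.93 ± 0.14).

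Of 37 transcription factors and inhibitors of the cell cycle, 13 were lower and 11 higher after Poly I:C then PBS at 2 h (22.4% and 24.9% of all genes), with a median of -0.08. Foxm1, which drives mitotic genes and was read from an entry that also names 4933413G19Rik, stood at 16.4 FPKM after PBS and 0.577 and 0.646 FPKM after Poly I:C at 2 h (-3.44 ± 0.24, limma adjusted p = 1.69e-06). Mybl2, the B-Myb subunit of the activating complex, stood at 4.74 against 1.14 and 0.909 FPKM (-1.51 ± 0.23). Both were low in all Poly I:C libraries, and 6 h of LPS alone lowered Foxm1 to 4.01 and 3.19 FPKM and Mybl2 to 1.09 and 1.11 FPKM (-1.17 and -1.65). Of the repressive E2F genes, E2f7 changed by -1.64 with Poly I:C at 2 h, and E2f8 by -1.32; LPS at 2 h raised E2f8 from 5.71 to 9.77 and 14.9 FPKM (0.96 ± 0.25), and at 6 h it was lower after LPS, at 1.15 and 1.87 FPKM against 6.03 FPKM (limma adjusted p = 7.68e-04).

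Cdkn1a, the kinase inhibitor p21, stood at 138 FPKM after PBS, 320.0 and 282 FPKM after Poly I:C, 588 and 557 FPKM after LPS and 1132 and 1198 FPKM after both at 2 h. Each stimulus raised it (1.12 ± 0.13 for Poly I:C and 2.05 ± 0.13 for LPS), and no interaction was called at that time (-0.10 ± 0.17). At 6 h it stood at 183 and 198 FPKM after Poly I:C and 364 and 360.2 FPKM after LPS, beside 118 FPKM in the control. Cdkn2c, the inhibitor p18, fell with Poly I:C from 23.2 to 2.42 and 2.64 FPKM (-2.78 ± 0.21), and Cdkn1b, p27, was higher at 2 h (0.91 ± 0.25) and did not pass at 6 h (0.23 ± 0.25). Rbl1, p107 of the retinoblastoma family, stood at 6.39 FPKM after PBS and 21.6 and 19.6 FPKM after Poly I:C at 2 h (1.55 ± 0.21). At 6 h it stood at 12.5 FPKM after PBS and was lower after Poly I:C, at 5.49 and 6.37 FPKM (-0.96 ± 0.21, limma adjusted p = 0.00595), and higher after LPS alone, at 23.3 and 28.8 FPKM (1.00 ± 0.21). Rb1 itself did not pass with Poly I:C at 2 h (-0.13 ± 0.26) and was lower at 6 h after Poly I:C (-0.90 ± 0.26, limma adjusted p = 0.0228) and after LPS alone (-1.28 ± 0.26).

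**Figure D5:**
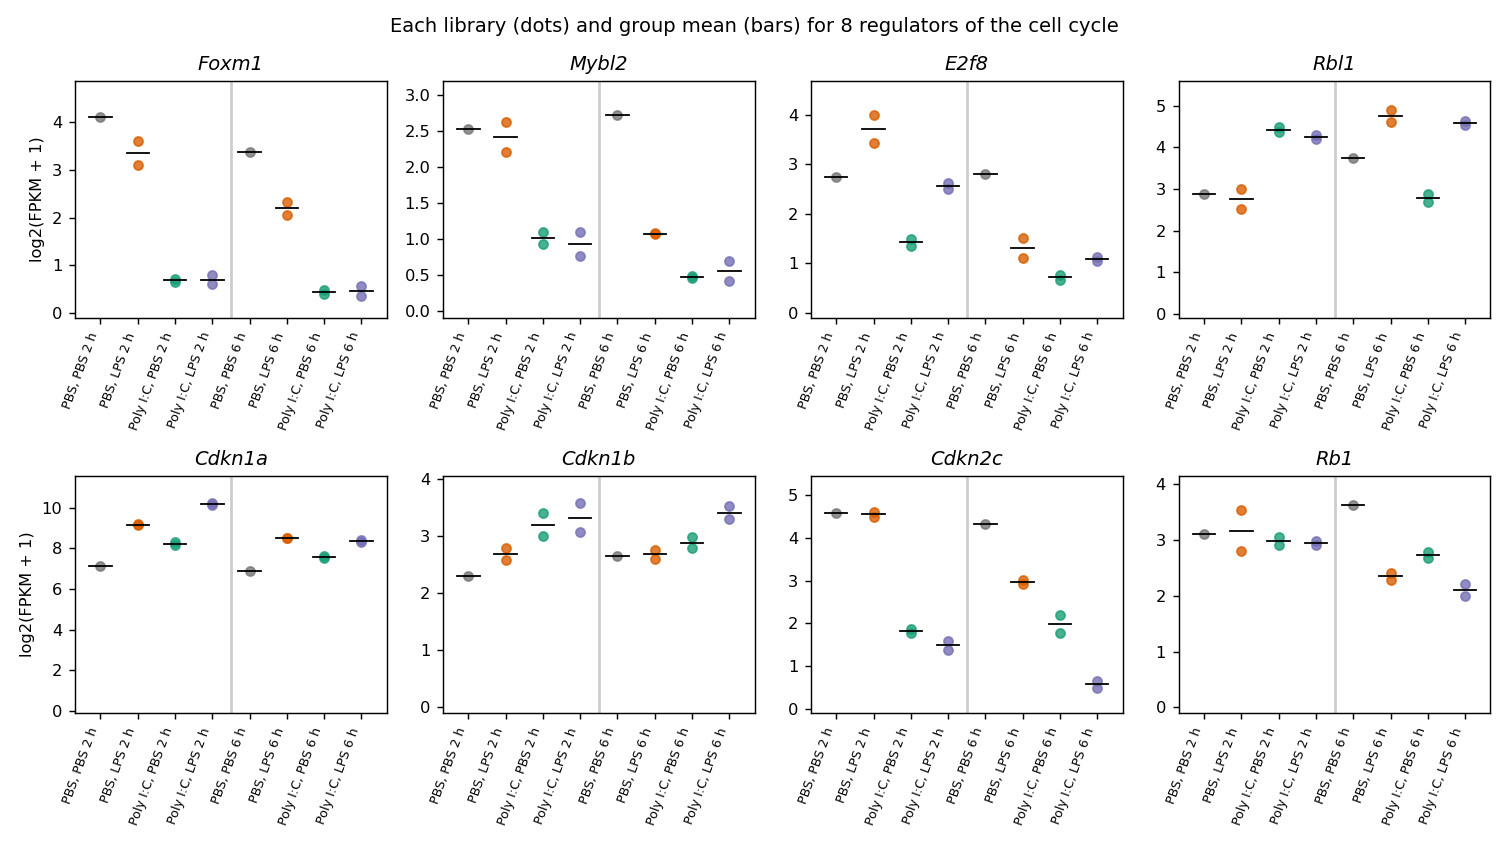
Levels of 8 cell cycle regulators as log2(FPKM + 1) by group, with 1 dot per library and a bar at the group mean. Foxm1 and Mybl2 are low in all Poly I:C groups, whereas Cdkn1a is highest at 2 h in cells given Poly I:C then LPS, at 1132 and 1198 FPKM.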

How the data were processed

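RNA of 14 libraries was sequenced as paired 76 base reads from stranded libraries of polyadenylated RNA, per the labels' protocols. FPKM values per gene were made with TopHat2, Cufflinks and Cuffnorm, per the submitters' processing notes, and deposited by the authors as 1 table of 39721 entries; versions are not given in the sources used here. The notes name mm9, but 33794 of 33853 entries found by name in a GRCm38 annotation overlap that gene there, and coordinates are given as GRCm38. The 1859 entries without a name were not tested.

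Values were tested as log2(FPKM + 1) with limma 3.58.1 (R 4.3.3), with an intensity trend, 8 group means over all 14 libraries, 6 residual degrees of freedom and Benjamini-Hochberg adjustment over the 11977 genes that reached 1 FPKM in 2 or more libraries. A gene is called at a two-sided adjusted p under 0.05. Values after ± are standard errors from that fit. A log2 difference on this scale understates the change of low genes. The procedure was tested on simulated data. Of several entries for 1 gene the one with the highest mean was used. Same-numbered replicates did not deviate together (correlations of -0.19 to 0.078 over 15 pairs of groups), so no block was used. Any member could be named. Of each other list, called genes with the largest change and at least 5 FPKM in either group were eligible. At most 3 per list came from each comparison with PBS then PBS, at 2 h and at 6 h. A fixed set of regulators was added. The members and lists were chosen with earlier results of these data known. Alternatives were another pseudocount, scaling, filter, trend and set of libraries, and leaving out each replicate.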

Additional observations from a re-analysis of the deposited data

Results flagged for a closer look

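Effects of LPS differed between cells with and without Poly I:C by a test of the difference itself. At 2 h 1 member had a more negative (1.77% of all genes) and 2 a more positive effect (2.52%) after Poly I:C. At 6 h 1 (16.7%) and 26 (12.7%) did. A more positive effect need not be a rise: with LPS after Poly I:C at 6 h 14 members were lower (22.2%) and 5 higher (21.7%). Mki67 and Mad2l1 had called effects of opposite sign at 6 h, lower with LPS after PBS (-1.12 and -1.32) and higher with LPS after Poly I:C (2.60 and 3.11), and their interaction terms were 3.72 and 4.43.

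The effect of LPS after PBS differed between 6 h and 2 h by limma. It was more negative at 6 h in 26 members (11.7% of all genes) and more positive in 0 (13.9%). Both tests use the single PBS-then-PBS libraries.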

How the results depend on the processing

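No member's difference changed sign with a call under any alternative run. At a pseudocount of 0.1, 0 members were lower with LPS after PBS at 2 h, and 2 had a more negative interaction at 6 h. Without the filter 0 members were lower with LPS after PBS at 2 h, 1 was higher after Poly I:C then PBS at 2 h, 0 had a more negative interaction at 2 h, and 1 was higher at 6 h than at 2 h after Poly I:C then PBS. With libraries of the same time alone 1 was lower with LPS after PBS at 2 h, 2 were lower with LPS after Poly I:C at 2 h, and 0 had a more negative interaction at 2 h. With the 2 PBS-then-PBS libraries pooled into 1 control 2 were higher with LPS after PBS at 2 h and 0 had a more negative interaction at 2 h. Over members with an entry of their own 0 had a more negative interaction at 2 h and 1 was higher at 6 h after Poly I:C then PBS. The cause was not tested, except that the last set holds fewer genes.

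The replicate block could be fitted only where both groups have 2 libraries, not with PBS then PBS. It left 1 member higher at 6 h than at 2 h after Poly I:C then PBS, in place of 3, and moved no other count by over 1.5 times.

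Leaving out each replicate gave these ranges of counts, lower then higher. Poly I:C against PBS, then PBS, gave 43 to 44 and 1 to 2 at 2 h and 45 to 45 and 0 to 0 at 6 h. Then LPS, it gave 42 to 42 and 2 to 2 at 2 h, and 35 to 38 and 3 to 4 at 6 h. LPS after PBS gave 1 to 3 and 0 to 2 at 2 h, and 31 to 35 and 1 to 1 at 6 h. LPS after Poly I:C gave 0 to 7 and 2 to 5 at 2 h, and 9 to 19 and 5 to 5 at 6 h. The interaction gave 0 to 1 and 2 to 2 at 2 h, and 1 to 1 and 22 to 28 at 6 h. From 2 h to 6 h, PBS then LPS gave 33 to 40 and 0 to 0, Poly I:C then PBS 2 to 5 and 1 to 3, and Poly I:C then LPS 9 to 12 and 2 to 2. The change of the LPS effect from 2 h to 6 h gave 20 to 28 and 0 to 0. The single PBS-then-PBS libraries cannot be left out.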

Other observations

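Entries without a gene name near Mki67, Mad2l1, Tpx2 and Ccne1 were looked up after the values of these genes were seen, and were not tested. None was found near Tpx2. Of those found, 2 lay just upstream of Mki67. The entry at chromosome 7, 135717667 to 135718341 (GRCm38), stood at 1.25 and 1.29 FPKM in the libraries given Poly I:C then LPS for 2 h, and at 0.156 FPKM or less in the other 12. The entry at 135718509 to 135719758 stood at 1.02 and 0.912 FPKM in the same libraries, at 0.136 and 0.380 FPKM after 6 h of LPS following Poly I:C, and at 0.155 FPKM or less in the other 10. Mki67 itself was at 31.5 and 32.9 FPKM in those 2 h libraries. Each unnamed entry near Ccne1 or Mad2l1 was also highest in a library given Poly I:C then LPS. Upstream of Ccne1, the entry at chromosome 7, 38118413 to 38120146, stood at 1.75 and 0.562 FPKM after Poly I:C then 6 h of LPS. After Poly I:C then 2 h of LPS it stood at 0.784 and 1.40 FPKM. Without LPS after Poly I:C it stood at 0.826 and 0.430 FPKM at 2 h and at 0.0661 and 0 FPKM at 6 h. It was at 0 FPKM in all libraries given PBS first. Beside Mad2l1, the entry at chromosome 6, 66545336 to 66547094, stood at 1.12 and 0.943 FPKM after Poly I:C then 6 h of LPS.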
